A study of Mus musculus with 24 samples.

Results

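Liver gene expression was compared between the 6 mice fed the chimpanzee diet and the 18 mice fed any of the other 3 diets, out of 24 liver arrays in all. The arrays were chosen by the diet in their labels and by no measured value. All 24 mice were females of the strain NMR-1, aged 8 weeks at the start, and each ate 1 diet for 2 weeks. The chimpanzee diet was an ape facility's menu of fruit and vegetables with yogurt, so it was not wholly of plant origin. Of the other mice, 6 stayed on the standard laboratory pellets on which all of the animals had been reared, 6 ate restaurant fast food (FastFood in the labels) and 6 ate cooked meals from a staff canteen (HumanCafe, here called the cafeteria diet). Each diet had 3 mice in each of 2 processing batches and each mouse gave 1 array. Each diet is a whole menu, so the parts played by single foods, by fiber, by protein or by the amount eaten cannot be told apart here. The study spread littermates evenly over the diets, so some of the mice are related, but no label ties a mouse to its litter. Litter could therefore not enter the fits, and p-values measure the spread between these mice.

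The liver receives absorbed nutrients directly from the gut and sets its enzymes to the incoming food. It breaks down surplus amino acids, makes glucose, fat and cholesterol, packs lipids into lipoproteins, and oxidizes and conjugates foreign plant compounds with cytochrome P450 enzymes, transferases and esterases. Most of its RNA comes from hepatocytes, with smaller contributions from Kupffer cells (the resident macrophages), endothelial cells and stellate cells.

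Values are log2 expression levels, so a difference of 1 is a doubling of signal, and levels of different genes are not set against each other. The 9 hepatocyte markers tested gave a summed log2 level of 14.71 to 15 in the chimpanzee diet mice and of 14.6 to 15.08 in the others, so the labelled tissue carried its markers at overlapping levels in both. Of these markers Hnf4a was higher on the chimpanzee diet (0.45, adjusted p = 0.0102, limma) and Tat lower (-0.47, adjusted p = 0.0355, limma). Batch took 45.5% of the variance among arrays, all 4 diets 15.1%, and the contrast of the chimpanzee diet with the others 6.3%. RNA quality differed with the diet. The difference between the 3′ and the 5′ probe set of beta-actin, which grows as RNA is shortened or copied incompletely, was 1.055, 0.879, 1.006, 1.094, 1.336 and 1.109 log2 units in the chimpanzee diet mice, against 0.609 to 0.989 in the other 18. The means were 1.08 ± 0.15 (SD, n = 6) and 0.82 ± 0.123 (SD, n = 18), and the difference of 0.259 (0.168 in batch 1 and 0.351 in batch 2) had a two-sided exact permutation p of 0.000186 with labels exchanged within batches (0.000558 after adjustment over the 3 quality measures tested). The other measures did not pass: the 3′ minus 5′ difference of pyruvate carboxylase differed by 0.344 (0.011 in batch 1 and 0.677 in batch 2, p = 0.0782, exact permutation, adjusted 0.117) and the 90th percentile of all values by -0.087 (p = 0.243, exact permutation, adjusted 0.243). The 4 arrays with the lowest 90th percentile, taken here as those of lowest signal range, were all from batch 2: chimpanzee diet replicates 1 (5.796) and 2 (5.869), fast food replicate 2 (5.849) and cafeteria replicate 3 (5.662). The part of RNA quality and of signal range in the results was tested only by refitting with and without them.

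**Figure D1:**
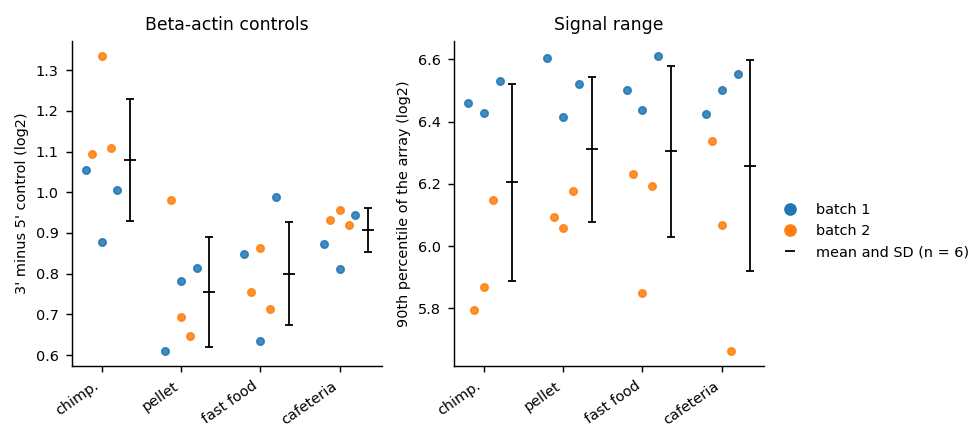
Array quality by diet (x axis), 1 point per mouse, with batches by colour and group means with their SD (n = 6). Left, the beta-actin 3′ minus 5′ difference (log2 units) lies at 0.879 to 1.336 on the chimpanzee diet and at 0.609 to 0.989 on the others. Right, the 90th percentile of all log2 values of an array is lower in batch 2 than in batch 1 and overlaps between the diets.

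Of 13385 genes tested with limma, 524 (3.91%) passed an adjusted p of 0.05 between the chimpanzee diet and the other 3 diets together, and these are here named called. In the chimpanzee diet mice 119 genes (0.889%) were higher and 405 (3.03%) lower, so that 77.3% of the calls were decreases. That split depended on scaling: decreases were 57.4% of the calls after cyclic loess, 56.2% after quantile normalization and 56.0% with the 90th percentile of each array as a covariate. The differences were modest. Their median size was 0.471 log2 units, 12 genes were called with an increase and 17 with a decrease of more than 1 log2 unit, and 3 genes exceeded 2. All 524 called genes had 1 sign in both batches and against all 3 diets. The pooled difference is the mean of the differences by batch and by diet, so choosing genes by it favours such agreement. It is therefore no separate replication. No gene (0 of 13385) passed an adjusted limma test for a different effect in the 2 batches, and 364 had an unadjusted p under 0.05 in it. With the beta-actin difference as an added covariate, 6 genes were called (Cyp2b10, Keg1, Apoa4, Ccl9, Agxt and Wsb1). The covariate itself moved with the diet, so RNA quality and diet cannot be fully told apart for any gene, these 6 included. The count of calls also rested on single mice. It was 302, 250 and 283 without replicates 3, 2 and 1 of the chimpanzee diet in batch 1, 192 and 226 without its replicates 1 and 2 in batch 2, 808 without fast food replicate 2 of batch 2, and 1143 without cafeteria replicate 3 of batch 2.

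Each diet was also compared on its own, to ask which genes set the chimpanzee diet apart from every one of them. These 3 comparisons share the chimpanzee diet arrays. Against pellets 1387 genes (10.4%) were called, 392 higher and 995 lower on the chimpanzee diet. Against fast food 272 genes (2.03%) were called, 48 higher and 224 lower, and against the cafeteria diet 168 genes (1.26%), 49 higher and 119 lower. A gene was taken as apart from each diet when the largest of its 3 p-values, all with 1 sign, passed after adjustment over all genes. 7 genes (0.0523%) did so: Cyp2b10, Keg1, Hao2, Tlcd2 and Ccl9 were lower and Apoa4 and Gulo higher on the chimpanzee diet. At an unadjusted p under 0.05 the number was 597. Agxt, Ces2a, Gstk1 and Psen2, all lower, followed at an adjusted p of 0.058. The count of 7 became 11 without chimpanzee diet replicate 2 or 3 of batch 2, 14 without cafeteria replicate 3 of batch 1, 21 without cafeteria replicate 3 of batch 2 and 19 without fast food replicate 2 of batch 2.

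Cyp2b10, a drug-metabolizing cytochrome P450 and a standard target of the nuclear receptor CAR, had the largest decrease. Its log2 level was 4.34, 4.40 and 4.27 in the chimpanzee diet mice of batch 1 and 4.61, 4.32 and 4.44 in those of batch 2. In the other 18 mice it ran from 5.95 through a median of 6.96 to 7.99. The groups did not overlap, and the gap between them was wider than the whole range of the 6 chimpanzee diet mice. The fitted difference was -2.48 (SE 0.21), a 5.59-fold decrease, with an adjusted limma p of 1.44e-07 against the pooled diets and of 6.78e-05 for the requirement to differ from each. The decrease was 2.67 log2 units against pellets, 2.25 against fast food and 2.52 against the cafeteria diet. The spread was also smaller on the chimpanzee diet, with an SD of 0.12 against 0.57 in the other mice, a difference that was not tested. All 3 Cyp2b10 probe sets were lower, by -2.48, -2.29 and -2.16, and the first 2 carry a suffix that marks probes shared between transcripts, so they may also read related Cyp2b genes. With the beta-actin covariate the difference was -2.32 (adjusted p = 0.000427, limma).

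Keg1, a gene of the glycine acyltransferase family, and Hao2, a peroxisomal oxidase of hydroxy acids, were the next largest of these decreases. Keg1 stood at 6.71, 7.13 and 7.24 in batch 1 and at 6.36, 6.17 and 7.35 in batch 2 on the chimpanzee diet, and between 7.82 and 9.58 with a median of 8.87 on the others. Hao2 stood at 8.61, 8.56, 8.24, 8.57, 8.28 and 9.20 on the chimpanzee diet and between 9.24 and 10.52 with a median of 9.84 on the others. Neither gene overlapped between the groups, although for Hao2 the highest chimpanzee diet mouse, replicate 3 of batch 2, came close to the lowest of the others. Keg1 differed by -1.89 (SE 0.22, 3.71-fold, adjusted p = 3.25e-05, limma) and Hao2 by -1.28 (SE 0.16, 2.43-fold, adjusted p = 5.8e-05, limma). With the beta-actin covariate the difference was -1.60 for Keg1 (adjusted p = 0.0429) and -1.08 for Hao2 (adjusted p = 0.0585), so the call of Hao2 was lost there.

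Tlcd2, which encodes a membrane protein, and Ccl9, a chemokine, overlapped slightly. Tlcd2 was at 7.90, 7.85 and 7.68 in batch 1 and 6.75, 7.04 and 7.06 in batch 2, against 7.72 to 9.13 in the others, of which 2 lay below the highest chimpanzee diet mouse. Its difference was -1.15 (SE 0.14, adjusted p = 5.8e-05, limma) and became -0.79 with the beta-actin covariate (adjusted p = 0.0861). Ccl9 was at 8.83, 8.45, 8.24, 8.19, 8.68 and 8.19, against 8.71 to 9.55, again with 2 of the 18 below the highest chimpanzee diet mouse. Its difference of -0.75 (SE 0.10, adjusted p = 0.000221, limma) was nearly the same in batch 1 (-0.76) and batch 2 (-0.74).

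Apoa4, an apolipoprotein of triglyceride-rich particles, was the clearest increase. Its log2 level was 10.72, 11.08 and 10.89 in batch 1 and 10.65, 11.04 and 10.49 in batch 2 on the chimpanzee diet, and 8.86 to 10.31 with a median of 9.58 on the others. Every chimpanzee diet mouse lay above every other mouse. The difference was 1.22 (SE 0.14, 2.33-fold, adjusted p = 3.25e-05, limma), and it was 1.03 against pellets, 1.36 against fast food and 1.27 against the cafeteria diet. It did not shrink with the beta-actin covariate (1.23, adjusted p = 0.0119). A further Apoa4 probe set gave 1.39, and the one used here carries a suffix that marks probes shared with other sequences. Gulo, the last enzyme of vitamin C synthesis, which mice have and apes lack, was at 10.29, 10.27, 10.19, 9.54, 10.16 and 9.84 on the chimpanzee diet and at 8.84 to 9.92 on the others. The groups overlapped: 8 of 18 mice lay above the lowest chimpanzee diet mouse, replicate 1 of batch 2, and replicate 3 of batch 2 also lay below the highest of the others. Gulo differed by 0.64 (SE 0.08, 1.56-fold, adjusted p = 0.000115, limma), and by 0.50 with the beta-actin covariate (adjusted p = 0.0967).

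**Figure D2:**
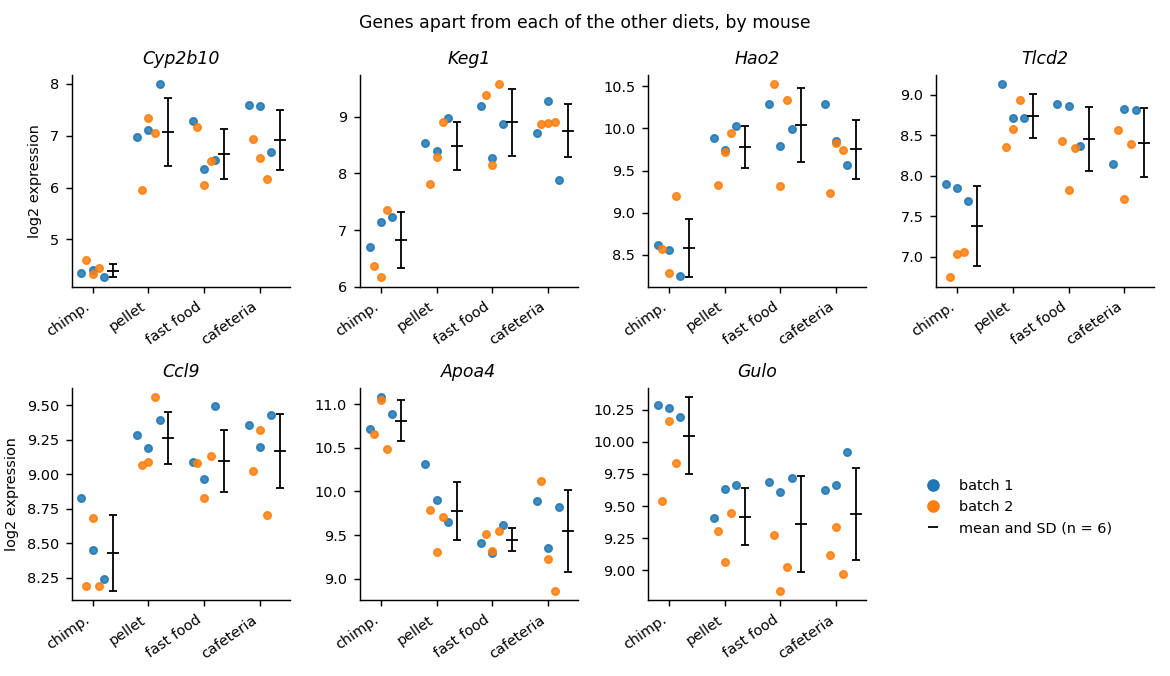
Log2 level of each of the 7 genes that differed from every other diet, by diet, 1 point per mouse with batches by colour and the mean with its SD (n = 6 per diet). The chimpanzee diet mice lie below all others for Cyp2b10, Keg1 and Hao2 and above all others for Apoa4, and they overlap with the others for Tlcd2 and Ccl9 (2 of 18 mice below the highest chimpanzee diet mouse) and more widely for Gulo (8 of 18 above the lowest).

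Whether single genes separated the mice completely was also counted. 7 genes (0.0523% of those tested) had 6 chimpanzee diet values that did not overlap with the other 18: Apoa4 and Rgs16 were higher, and Cyp2b10, Hao2, Keg1, Nudt2 and Ropn1l lower. Nudt2, a hydrolase of dinucleoside polyphosphates, was at 5.40 ± 0.12 (SD, n = 6) against 6.0 ± 0.20 (SD, n = 18), a difference of -0.60 (SE 0.09, adjusted p = 0.000521, limma). Ropn1l was at 4.86 ± 0.14 (SD, n = 6) against 5.71 ± 0.38 (SD, n = 18), a difference of -0.84 (SE 0.15, adjusted p = 0.00382, limma). These last 2 genes were chosen after their values were seen. Counted within each batch, where 3 mice face 9, 44 genes (0.329%) did not overlap in either batch and kept 1 direction, 11 higher and 33 lower.

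Among the largest increases, Rgs16, a regulator of G-protein signalling with daily rhythms in liver, rose most. Its level was 8.52, 8.61, 8.79, 8.01, 8.57 and 8.43 on the chimpanzee diet, a narrow band beside 4.44 to 7.82 (median 5.62) on the others. The difference was 2.51 (SE 0.47, 5.69-fold, adjusted p = 0.00404, limma), and 3 probe sets gave 2.51, 2.14 and 1.34. With the beta-actin covariate it was 1.89 and not called (adjusted p = 0.381), and the wide spread of the other mice left the test against each diet at an adjusted p of 0.23. Cyp17a1, the steroid hydroxylase and lyase, was at 7.84, 7.73, 7.49, 5.21, 7.44 and 6.02 against 3.99 to 8.48 with a median of 4.50. Its difference of 2.22 (SE 0.42, adjusted p = 0.00464, limma) held against pellets (2.62) and fast food (2.44) but was not called against the cafeteria diet (1.59, adjusted p = 0.112), in which replicate 3 of batch 1 had the highest level of all 24 mice.

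Lpin1, a phosphatidate phosphatase of triglyceride synthesis and a transcriptional coactivator, stood at 8.82, 8.53, 9.29, 8.70, 8.78 and 7.49 on the chimpanzee diet and at 5.51 to 9.22 (median 6.79) on the others. The difference was 1.66 (SE 0.35, 3.16-fold, adjusted p = 0.00966, limma). Over the alternative fits it ran from 1.183 to 1.831. Lpin1 was not called without the pellet mice, without the 4 arrays of lowest signal range, in either batch alone or with the beta-actin covariate. Cyp39a1, an oxysterol hydroxylase of bile acid synthesis, stood at 6.86, 6.59, 6.42, 4.21, 5.24 and 5.65 against 3.44 to 6.39, a difference of 1.57 (SE 0.26, adjusted p = 0.00139, limma). It was called against each of the 3 diets singly, by 1.79, 1.75 and 1.16. Its level was higher in batch 1 than in batch 2 in both groups of mice, and its mean on the other diets lay within 1 log2 unit of the filter level. Mup10, a major urinary protein whose probes may also read its close paralogs, was 1.90 higher (SE 0.40, adjusted p = 0.00917, limma).

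The other called increases of more than 1 log2 unit were of mixed function. Lrrc28 was 1.22 higher, Slc35g1, a solute carrier, 1.08, and Tcim 1.08. Lcn2, an iron-siderophore binding protein of the acute phase, was 1.08 higher. St3gal5, the synthase of the ganglioside GM3, rose by 1.08 and Ppp1r3b, which directs protein phosphatase to glycogen, by 1.02. For these last 2 the other diets also differed among themselves (adjusted p = 0.012 and 6.47e-07, limma). Ppp1r3b was at 9.19 on the chimpanzee diet, 8.87 on fast food, 8.26 on the cafeteria diet and 7.37 on pellets, and the step of 0.32 between the first and the second was not called (adjusted p = 0.26, limma). Of 45 alternative fits Tcim was called in 29, Ppp1r3b in 31, St3gal5 in 37, Lcn2 in 38 and Lrrc28 in 43, and Slc35g1 in 41 of 43. Tcim and Ppp1r3b lost their calls when any single chimpanzee diet mouse was left out, and without the pellet mice. Lcn2 lost its call without the fast food mice. None of these genes was called with the beta-actin covariate.

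**Figure D3:**
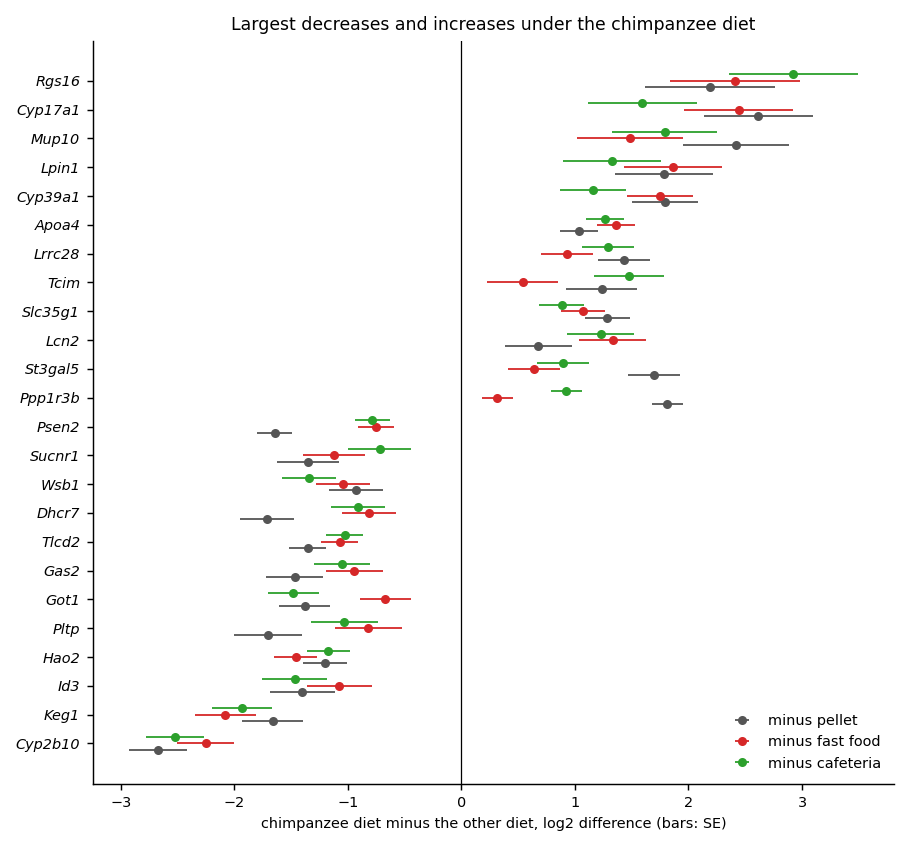
Difference in log2 level (x axis) between the chimpanzee diet and, by colour, pellets, fast food and the cafeteria diet (n = 6 mice each) for the 12 genes with the largest called increases and the 12 with the largest called decreases, with bars for the standard error. Rgs16 is the top gene and Cyp2b10 the bottom one, and every gene keeps its side of 0 against all 3 diets.

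The largest decreases outside the 7 genes apart from each diet included Id3, an inhibitor of DNA binding that answers to bone morphogenetic protein signals. Id3 was at 5.93, 5.86, 5.62, 5.06, 5.34 and 5.61 on the chimpanzee diet and at 5.60 to 7.83 (median 7.02) on the others, with 2 of the 18 below the highest chimpanzee diet mouse. The difference was -1.31 (SE 0.24, 2.49-fold, adjusted p = 0.0032, limma), and it was called against each diet. Got1, the cytosolic aspartate aminotransferase, was at 8.71, 8.56, 9.29, 8.74, 8.61 and 7.85 against 8.59 to 10.72, a difference of -1.18 (SE 0.23, adjusted p = 0.00535, limma). The difference for Got1 was -1.38 against pellets, -1.48 against the cafeteria diet and -0.67 against fast food, the last not called (adjusted p = 0.12). Pltp, which transfers phospholipids between lipoproteins, fell by 1.19 and was called singly only against pellets (-1.70), with -0.82 against fast food and -1.03 against the cafeteria diet. Gas2, a growth-arrest gene of the cytoskeleton, fell by 1.16 and was called against all 3 diets. Wsb1, Sucnr1 (the succinate receptor) and Psen2 (a presenilin) fell by 1.10, 1.07 and 1.06. Psen2 also differed among the other diets (adjusted p = 0.000588, limma), with 9.47 on pellets, 8.58 on fast food, 8.61 on the cafeteria diet and 7.83 on the chimpanzee diet. A further Psen2 probe set, near the filter level at 3.344, gave -0.02.

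The genes were then read in 26 functional lists with 814 distinct measured members. For each list the count of called genes and the median difference stand beside those of all 13385 genes, of which 3.91% were called at a median of -0.005. Cholesterol synthesis and uptake had the lowest median. Of 22 measured genes 5 (22.7%) were called, all lower, 21 lay below 0 and the median was -0.721, with -0.895 in batch 1 and -0.452 in batch 2. The 5 were enzymes of the late pathway: Lss, which closes the sterol ring (-0.93), Msmo1 (-1.06), which removes methyl groups, Ebp (-0.54), an isomerase, and Sc5d (-0.96) and Dhcr7 (-1.15), which catalyse the last steps. Dhcr7 was at 5.63, 5.53 and 5.72 in batch 1 and at 6.25, 6.40 and 6.49 in batch 2 on the chimpanzee diet, against 5.95 to 7.99 (median 7.14) on the others. Sc5d was at 8.91, 8.77, 9.08, 8.92, 8.69 and 9.04 against 8.61 to 10.66, with 2 mice of the other diets below the highest value. Further Sc5d probe sets gave smaller decreases of -0.446 and -0.316, at mean levels of 7.521 and 5.062 beside 9.617 for the one used. The size depended on the diet it was set against: the median of the list was -1.315 against pellets, -0.239 against fast food and -0.548 against the cafeteria diet. Without the pellet mice the median was -0.419, and with the beta-actin covariate it was -0.426. In both fits limma called 0 genes of the list. The number of called genes ran from 2 without chimpanzee diet replicate 2 of batch 1 to 14 without fast food replicate 2 of batch 2.

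Sequences upstream of the called cholesterol genes were read from RefSeq, assembly GRCm38.p6, since these genes moved together and are textbook targets of the sterol response factors, which bind next to the CCAAT-binding factor NF-Y. The windows cover the 250 bases before the annotated start, 5′ to 3′ on the strand of the gene, for the 4 called genes with a single start in the table (Dhcr7 has 3). Ebp is at chrX:8193513-8193762 on the minus strand, Lss at chr10:76531355-76531604 on the plus strand, Msmo1 at chr8:64733579-64733828 on the minus strand and Sc5d at chr9:42264301-42264550 on the minus strand. Capitals mark CCAAT or its reverse complement ATTGG.
Ebp: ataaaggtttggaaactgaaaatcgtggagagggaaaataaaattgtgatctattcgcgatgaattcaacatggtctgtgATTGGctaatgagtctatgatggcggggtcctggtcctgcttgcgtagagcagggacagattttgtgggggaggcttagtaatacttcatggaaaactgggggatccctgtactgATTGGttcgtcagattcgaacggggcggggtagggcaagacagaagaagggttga
Lss: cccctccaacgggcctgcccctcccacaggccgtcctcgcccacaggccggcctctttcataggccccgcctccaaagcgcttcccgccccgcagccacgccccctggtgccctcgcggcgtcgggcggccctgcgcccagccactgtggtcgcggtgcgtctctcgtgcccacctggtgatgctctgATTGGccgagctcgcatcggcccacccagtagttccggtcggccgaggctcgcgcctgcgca
Msmo1: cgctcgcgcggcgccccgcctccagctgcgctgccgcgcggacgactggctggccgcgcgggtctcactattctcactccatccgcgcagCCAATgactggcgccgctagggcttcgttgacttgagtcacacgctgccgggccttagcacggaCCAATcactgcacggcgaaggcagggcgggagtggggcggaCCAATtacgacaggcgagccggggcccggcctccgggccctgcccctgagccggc
Sc5d: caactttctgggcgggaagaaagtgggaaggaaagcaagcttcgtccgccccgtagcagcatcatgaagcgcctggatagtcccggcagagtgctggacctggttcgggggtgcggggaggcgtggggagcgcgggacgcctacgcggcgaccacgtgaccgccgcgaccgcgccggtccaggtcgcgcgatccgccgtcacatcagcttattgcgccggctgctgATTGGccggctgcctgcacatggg
Ebp had 2 such matches, Lss 1, Msmo1 3 and Sc5d 1. CCAAT was present on either strand in at least 1 window of all 18 genes of the list that have one (4 of the 22 have none), against 37.5% of 27025 genes in the table, 39.5% of the 10747 tested genes, 47.8% of the genes called lower and 43.0% of those called higher. Of the other 3 motifs searched on both strands, the E-box CACGTG was present in 4 of the 18 genes (22.2%, against 6.9% of all genes and 9.4% of tested genes), TATAAA in 0 (14.3% of all, 8.8% of tested) and the sterol element TCACNCCAC in 1 (1.2% of all, 1.3% of tested). No motif contains another, all were chosen with the expression results known, and a match is a description of letters and not of binding. CACGTG was present in 21.0% of the genes called higher and 8.1% of those called lower.

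Amino acid catabolism and the urea cycle turn surplus protein into fuel and urea. Of 55 genes measured 12 were called (21.8%), all lower, 48 lay below 0 and the median was -0.209. Got1, described above, had the largest decrease. Agxt, which transfers the amino group of alanine to glyoxylate, had the smallest p, with a difference of -0.94 (SE 0.13, adjusted p = 0.000269, limma). It was at 9.30, 8.81 and 8.85 in batch 1 and 8.39, 8.99 and 8.35 in batch 2 on the chimpanzee diet, against 9.04 to 10.21 on the others. Only 2 of the 18 lay below the highest chimpanzee diet mouse. With the beta-actin covariate its difference was -1.05 (adjusted p = 0.0183, limma). Mccc2 of leucine breakdown (-0.59), Bhmt, which remethylates homocysteine with betaine (-0.63), and Abat, the transaminase of aminobutyrate (-0.54), were called with it, as were Kynu, Cbs, Ivd, Amdhd1, Tat, Oat and Hal. The median was -0.092 against pellets, -0.233 against fast food and -0.261 against the cafeteria diet. The count of calls in the list ran from 8 without chimpanzee diet replicate 1 of batch 1 to 19 without cafeteria replicate 3 of batch 2, and it was 1 with the beta-actin covariate, where the median was -0.217. The median depended on scaling: it was -0.106 after cyclic loess, with 14 genes called lower and 1 higher, and -0.123 after quantile normalization. The related lists had medians near 0. Of 24 genes of the ATF4 response to amino acid shortage 2 were called higher (8.33%, against 3.91% of all tested genes), Fgf21 (0.61) and Ddit3 (0.41). The list median was 0.012, with 12 members above 0 and 12 below. Of the 24, 9 had an unadjusted p under 0.05 in limma, beside 2527 of all 13385 genes. Fgf21 lay near the filter level, at 3.35, 3.17 and 3.52 in batch 1 and 4.26, 4.26 and 5.15 in batch 2. Of 19 aminoacyl-tRNA synthetases 1 was called higher (5.26%), Sars (0.27), at a list median of -0.031.

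**Figure D4:**
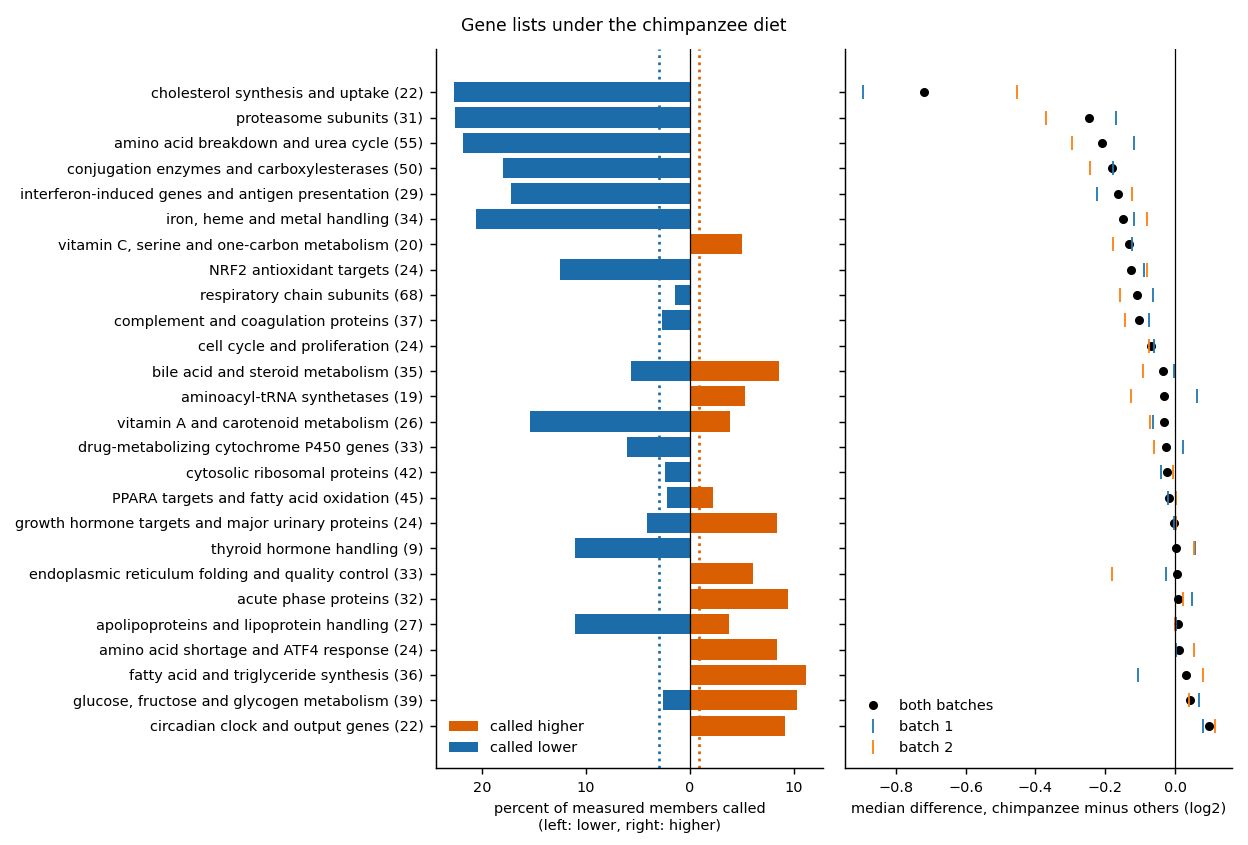
The 26 gene lists with the number of measured genes in parentheses. Left, the percent of measured genes called lower (bars to the left) and higher (to the right) on the chimpanzee diet, with dotted lines at the share of all tested genes (3.03% and 0.889%). Right, the median log2 difference of each list from both batches and from each batch. Cholesterol synthesis and uptake lies farthest from 0 at a median of -0.721.

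The proteasome degrades proteins in a barrel of subunits with a cap at its ends. All 31 subunits measured lay below 0 with a median of -0.246, and 7 (22.6%) were called lower, among them Psmd14, the deubiquitinase of the cap (-0.79), and the barrel subunits Psma1 (-0.58), Psma5 (-0.55) and Psmb2 (-0.37). Psmd14 was at 6.99, 7.01 and 7.23 in batch 1 but at 5.94, 5.69 and 6.36 in batch 2 on the chimpanzee diet, against 6.24 to 7.92 on the others, so the mice of batch 2 carried most of its difference (-0.47 and -1.10 by batch). The list moved with the array measures: the median was -0.083 with the beta-actin covariate and -0.155 after cyclic loess, where 10 subunits were called. The calls numbered 3 without the 4 arrays of lowest signal range, 1 without the pellet mice, 2 without chimpanzee diet replicate 1 of batch 2 and 15 without fast food replicate 2 of batch 2. Of 68 respiratory chain subunits 65 lay below 0 at a median of -0.110 (-0.034 after cyclic loess), with 1 called, Ndufb3 (-0.41). The 42 cytosolic ribosomal proteins had a median of -0.022, which became 0.047 after cyclic loess, and 1 call, Rpl14 (-0.33), whose mean on the chimpanzee diet lay below the level of the filter.

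Interferon-induced genes and genes of antigen presentation serve the defence against viruses. Of 29 measured 28 lay below 0, the median was -0.164 and 5 were called (17.2%), all lower: the immunoproteasome subunits Psmb9 (-0.93), Psmb8 (-0.52) and Psmb10 (-0.45) and the interferon-induced GTPases Ifi47 (-0.67) and Igtp (-0.49). The list had 2 calls without chimpanzee diet replicate 1 of batch 2 and 0 in limma with the beta-actin covariate, where its median was -0.147. Psmb9 was at 5.77, 6.14, 5.57, 5.10, 5.49 and 5.70 on the chimpanzee diet and at 5.22 to 7.12 on the others, called against pellets (-1.22) and fast food (-1.0) but not against the cafeteria diet (-0.57, adjusted p = 0.17, limma). In whole liver fewer cells of a type and less RNA per cell cannot be told apart. Of 13 Kupffer cell markers tested 1 was called lower, Cd68 (-0.51, adjusted p = 0.0237, limma), 7 had an unadjusted p under 0.05 and the median was -0.414 (-0.503 in batch 1 and -0.226 in batch 2). Leaving out single mice gave medians of -0.572 to -0.232 and from 0 calls (without chimpanzee diet replicate 1 of batch 1) to 3 (without cafeteria replicate 2 of batch 2). Their summed level was 9.0 to 10.41 on the chimpanzee diet and 8.96 to 10.99 on the others, and their part in the result was not tested. Among the defining markers Clec4f was at 7.03 against 7.56 and Vsig4 at 6.46 against 7.27, neither called, while Marco was at 4.04 against 3.72, also not called. Of 10 endothelial markers 1 was called lower, Oit3, at a median of -0.129, and of 12 stellate cell markers 1, Col3a1 (-0.98, adjusted p = 0.0130, limma), at a median of -0.139. No marker was called of bile duct cells, lymphocytes, neutrophils, red blood cells, pancreas acinar cells, fat cells or skeletal muscle. The neutrophil markers Ngp and Mpo, the fat cell markers Adipoq and Lep and the muscle markers Acta1 and Myh4 had means below the filter level. By contrast, 0 of 6 pancreas acinar markers and 2 of 6 bile duct markers on the array did. The summed acinar level was 7.76 to 8.71 on the chimpanzee diet and 8.16 to 9.11 on the others.

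Conjugation enzymes attach polar groups to foreign compounds, and carboxylesterases cleave their ester bonds. Of 50 conjugation enzymes and carboxylesterases 9 (18%) were called, all lower, at a median of -0.181. Ces2a, a carboxylesterase, was at 9.57, 9.32, 9.36, 9.37, 9.18 and 9.12 on the chimpanzee diet and at 9.38 to 10.36 on the others, where 1 mouse lay below the highest chimpanzee diet value. Its difference was -0.67 (SE 0.09, adjusted p = 0.000221, limma), called against each diet singly. Gstk1, a glutathione transferase of mitochondria and peroxisomes, was 0.81 lower by value (9.50 against 10.31) and also called against each diet. Gstm5 (-0.62) was called with Gstm4 and Gstm6, whose sequences are close enough for probes to be shared, and so were Keg1 (described above), Ugdh, Nat2 and Papss1. Of the list, 4 were called without the 4 arrays of lowest signal range, 4 without chimpanzee diet replicate 2 of batch 1 and 1 with the beta-actin covariate, where the median was -0.192. After cyclic loess the list median was -0.098 and after quantile normalization -0.116, with 10 genes called lower in each. The drug-metabolizing P450 list held 2 calls among 33 genes (6.06%, against 3.91% of all tested genes). These were Cyp2b10 and Cyp2r1 (-0.50, below the filter level), and the list median was -0.026. Of 24 antioxidant targets of the factor NRF2 3 (12.5%) were called lower: Abcc3, an exporter of conjugates (-0.65), Txn1, thioredoxin (-0.38), and Taldo1 of the pentose phosphate path (-0.35).

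The next lists cover fat and sugar metabolism. Of 36 genes that build fatty acids and triglycerides, 4 were called (11.1%, against 3.91% of all tested genes), all higher, although the median was 0.031 (-0.106 in batch 1 and 0.081 in batch 2). They were Lpin1, the lipid droplet protein Plin5 (0.96), and the regulators Srebf1 (0.52) and Mlxipl (0.37), which switch on fat synthesis in response to insulin and sugar. This count was unstable: it was 1 without the pellet mice, 4 higher and 4 lower without the cafeteria mice, and 0 higher and 1 lower without the 4 arrays of lowest signal range. Plin5 was at 6.67, 6.34 and 6.72 in batch 1 and 5.00, 4.65 and 5.02 in batch 2 on the chimpanzee diet, against 3.66 to 6.88 on the others. Of 39 genes of glucose, fructose and glycogen metabolism 4 were called higher and 1 lower (12.8% in all), at a median of 0.042. Khk, the kinase that starts fructose breakdown, rose by 0.55 (SE 0.10, adjusted p = 0.00387, limma), with Slc37a4, the glucose phosphate carrier (0.48), Pcx, pyruvate carboxylase (0.40), and Ppp1r3b, while Galt of galactose use fell (-0.55). Without the 4 arrays of lowest signal range 1 gene of this list was called higher and 0 lower. Of 45 genes of fat burning (PPARA targets and enzymes of fatty acid oxidation) 1 was called higher, Mgll (0.49), and 1 lower, Crot (-0.49). This share of 4.44% was near that of all tested genes.

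**Figure D5:**
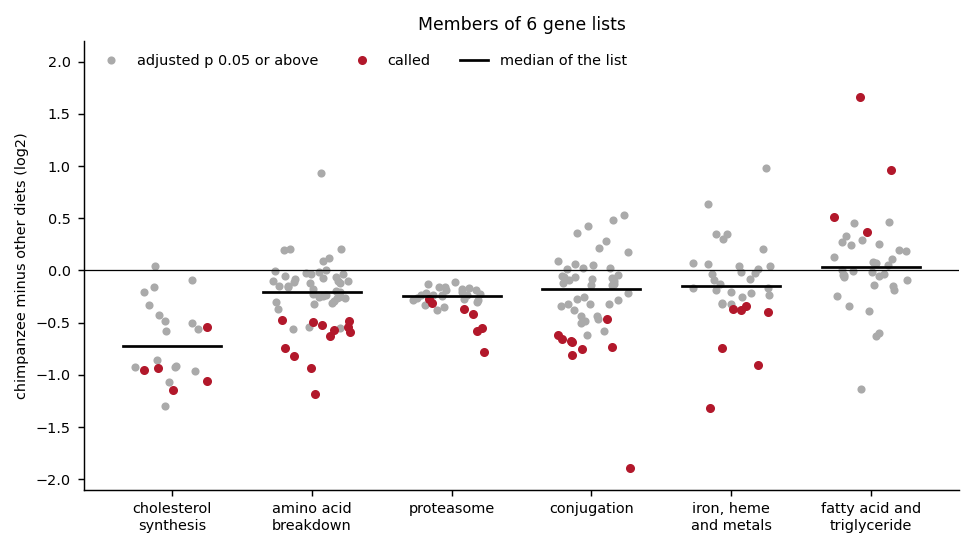
Difference in log2 level (y axis, chimpanzee diet minus the other 3 diets together) of every measured gene in 6 gene lists (x axis), 1 point per gene, with called genes in red and a bar at the list median. All 31 proteasome subunits and 21 of 22 genes of cholesterol synthesis and uptake lie below 0, while the points of the fatty acid and triglyceride list fall on both sides.

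Lipoprotein, bile acid and vitamin A genes were called in both directions, at list medians of 0.009, -0.035 and -0.031. Their called shares were 14.8%, 14.3% and 19.2%, against 3.91% of all tested genes. Of 27 apolipoprotein and lipoprotein genes Apoa4 was called higher and 3 lower, namely Pltp, Lpl, the lipase of the vessel wall (-0.68), and Apon (-0.34). Of 35 bile acid and steroid genes 3 were called higher, Cyp17a1, Cyp39a1 and the sterol hydroxylase Cyp46a1 (0.69), and 2 lower, Abcc3 and the peroxisomal oxidase Acox2 (-0.46). Of 26 genes of vitamin A and carotenoid metabolism 1 was called higher and 4 lower. Rdh9 and Rdh16, retinol dehydrogenases of 1 family, moved in opposite directions: Rdh9 rose by 0.85 (10.45, 10.17, 10.21, 9.53, 10.15 and 9.62 against 8.42 to 9.99) and Rdh16 fell by 0.83 (6.13, 5.99, 6.58, 6.16, 5.72 and 6.32 against 5.87 to 7.46). The Rdh9 probe set may also read paralogs. Aldh1a7 (-0.58), Rdh5 (-0.40) and Rarb were the other called decreases. Gulo was the 1 call among 20 genes of vitamin C, serine and one-carbon metabolism (5.0%, near the share of all genes).

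Of 34 genes of iron, heme and metal handling 7 (20.6%) were called, all lower, at a median of -0.150. Of these Id1 (-0.91), Id2 (-0.74) and Id3 are inhibitors of DNA binding that stand in the list as targets of the bone morphogenetic protein signal which also drives hepcidin, and they do not handle metals themselves. Id1 was at 4.99, 4.53, 4.95, 5.06, 5.18 and 5.43 on the chimpanzee diet and at 5.06 to 6.70 on the others. It was called against fast food (-1.01) and the cafeteria diet (-1.15) but not against pellets (-0.55, adjusted p = 0.09, limma). The remaining calls were Blvra and Ppox of heme turnover, Hfe, an iron sensor, and Atp7b, the copper exporter (-0.40). Further Atp7b probe sets gave -0.127 and 0.009, at mean levels of 4.314 and 3.846 beside 4.339 for the one used. Of the list, 3 were called without the 4 arrays of lowest signal range, 2 without chimpanzee diet replicate 1 of batch 2 and 0 in limma with the beta-actin covariate, where the median was -0.060.

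The lists left had few calls in number, but most had a share above the 3.91% of all tested genes. Called were 9.38% of the acute phase, 6.06% of the endoplasmic reticulum and 9.09% of the circadian genes. For growth hormone targets the share was 12.5%, for thyroid genes 11.1%, for complement and coagulation genes 2.7% and for cell cycle genes 0%. Of 32 acute phase genes 3 were called higher, Lcn2 and the cytokine receptors Il1r1 (1.00) and Il6ra (0.48). Il1r1 was at 7.39, 7.29 and 7.28 in batch 1 and at 6.43, 6.94 and 6.12 in batch 2, against 5.21 to 7.24 on the others. Of 33 genes of folding and quality control in the endoplasmic reticulum 2 were called higher, Syvn1 (0.58) and Herpud1 (0.74), both of the pathway that removes misfolded proteins. Of 22 circadian genes 2 were called higher, Rgs16 and the output regulator Hlf (0.64). Of 24 growth hormone targets and major urinary proteins Mup10 and Mup5 (0.41) were called higher and Cish, a feedback inhibitor of growth hormone signals, lower (-0.71). Of 9 thyroid genes 1 was called lower, Serpina7, the thyroxine-binding globulin (-1.03, with the chimpanzee diet mean below the filter level). Dio1, at a mean level of 5.761, was 1.466 higher but not called. After cyclic loess and after quantile normalization 1 thyroid gene was called higher and 1 lower. Of 37 complement and coagulation genes 1 was called lower, Mbl2 (-0.38). Of 24 cell cycle genes 0 were called in limma and 2 had an unadjusted p under 0.05.

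The other 3 diets were set against each other for background. With limma's F test, 584 genes (4.36%) differed among pellets, fast food and the cafeteria diet. Of the 524 genes called for the chimpanzee diet 39 (7.44%) were in this set, Ppp1r3b, Psen2, St3gal5 and Dhcr7 among them. For Dhcr7 the means were 7.72 on pellets, 6.82 on fast food, 6.92 on the cafeteria diet and 6.0 on the chimpanzee diet, and the difference was called singly only against pellets. A call against the 3 diets pooled is therefore not a call against each.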

How the data were processed

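Total RNA of 24 livers was hybridized to Affymetrix Mouse Genome arrays, 1 array per mouse. The authors deposited 1 column of log2 values per array, the output of rma (robust multichip average, affy package), which corrects background, normalizes by quantiles and summarizes probes. Not given in the sources used here are the version of the package and whether brain arrays were normalized jointly. Deposited values ran from 1.9 to 13.01, correlations between arrays from 0.9255 to 0.9956. The deposited arrays did not share 1 distribution, so scaling was varied. The detection p-values of the study's methods were not used.

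Of 45101 probe sets, 64 controls were left out. 34945 had 1 gene symbol in the platform annotation, 932 several and 9160 none, and 34741 matched the RefSeq table by Entrez ID (0 symbols changed). Probe sets above the median of all values (3.147, the filter level) in at least 6 arrays were kept (25544 kept, 19493 removed), and the probe set of highest mean stood for its gene, which left 13385 genes. The test was limma 3.58.1 in R 4.3.3 on diet (chimpanzee against the other 3 pooled) with batch, Benjamini-Hochberg adjusted over all genes at 0.05. A fit with 4 diets gave the single differences, the requirement to differ from each diet and the F test among the other 3. Array quality was tested by exact permutation over the 48400 labellings within batches, two-sided. Named are the 12 largest called increases and decreases among genes with 1 sign in both batches, with clone names and predicted genes left out. Also named are the 10 genes of smallest p against each diet, and up to 4 genes of smallest p per list. Further genes were chosen after their values were seen. The comparison, the lists and the motifs were chosen with earlier results of these data known. Arrays carry no read depth, so their number limits the precision. Groups, batches and replicate numbers were taken from the labels, and replicates are separate mice.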

Additional observations from a re-analysis of the deposited data

Results flagged for a closer look

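For 80 named genes and 3 array quality measures, the 6 mice of each diet were checked for a single mouse far from the other 5. For 6 draws from 1 normal distribution, chance gives this in about 1 of 20 groups. Each group here spans 2 batches and values were not adjusted for batch, so that rate need not hold. Of 332 groups, 21 had such a mouse, which is not far from that rate. None of the 21 was on the chimpanzee diet, so none of these values belongs to the 6 mice that define the comparison. Replicate 2 of batch 2 on fast food gave 9 of them and replicate 3 of batch 2 on the cafeteria diet 5. Both arrays are among the 4 of lowest signal range, and the part of the range in these values was not tested.

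On fast food, replicate 2 of batch 2 was lowest for Pltp (6.40, next 7.63), Sc5d (8.61, next 9.70), Psma1 (6.83, next 7.71), Psma5 (7.61, next 8.44), Psmb2 (7.42, next 7.86), Ces2a (9.38, next 9.87), Txn1 (9.39, next 9.96), Mgll (8.01, next 8.74) and Ndufb3 (7.80, next 8.41). On the cafeteria diet, replicate 3 of batch 2 was lowest for Sucnr1 (4.03, next 5.37), Agxt (9.09, next 9.82), Psmd14 (6.24, next 7.04), Psmb2 (7.44, next 7.90) and Pcx (8.30, next 9.0). For the genes that were lower on the chimpanzee diet, these values lie on the side of the chimpanzee diet mice.

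Replicate 3 of batch 1 on the cafeteria diet was highest for Cyp17a1 (8.48, next 5.35) and Slc35g1 (5.35, next 4.57). Cyp17a1 in this mouse lay above all 6 chimpanzee diet mice. Replicate 3 of batch 1 on fast food was highest for Lrrc28 (5.75, next 4.91), Rdh5 (6.03, next 5.46) and Khk (10.16, next 9.76). Replicate 2 of batch 2 on pellets was lowest for Tcim (5.40, next 6.35), and replicate 1 of batch 2 on the cafeteria diet was lowest for Ddit3 (4.55, next 5.00).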

How the results depend on the processing

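The count of called genes moved with most choices. The largest increases and decreases were picked for 1 sign in both batches, so a single batch could not reverse them. The other alternatives reuse most of the same arrays. Of the 26 leading genes 0 reversed in any alternative, which for these reasons says little about stability. 13 of them were called in batch 1 alone, 1 in batch 2 alone, 19 without the pellet diet and 5 with the beta-actin covariate. In place of 524, the calls were 870 with the 4 diets as separate terms, 88 without batch, 141 in batch 1 alone, 1 in batch 2 alone, 200 without the pellet diet, 1231 without the cafeteria diet, 803 with the probe set of smallest p for each gene, 917 after cyclic loess, 828 after quantile normalization, 1660 with array weights, 6 with the beta-actin difference as covariate and 1297 with the methods' unmoderated model at their unadjusted threshold. No filter (421), a stricter filter (568), the methods' model after Benjamini-Hochberg adjustment (533) and leaving out the 4 arrays of lowest range, an alternative chosen after seeing the data (362), stayed within 1.5 times. Single batches hold 3 chimpanzee diet mice each. The cause of the other shifts was not tested.

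In place of 7, the genes apart from each diet were 4 without batch, 4 in batch 1 alone, 0 in batch 2 alone, 12 without pellets, 43 without fast food, 167 without the cafeteria diet, 11 over every probe set, 53 after cyclic loess, 51 after quantile normalization, 54 with array weights, 41 with the 90th percentile as covariate, 0 with the beta-actin covariate, 194 with the methods' model at its unadjusted threshold (8 after Benjamini-Hochberg adjustment) and 18 without the 4 arrays of lowest range. Dropping a diet removes 1 of the 3 requirements. In place of 584, the genes that differed among the other diets were 224 without batch, 362 in batch 1 alone, 18 in batch 2 alone, 1180 after cyclic loess, 1066 after quantile normalization, 886 with array weights, 1364 with the 90th percentile as covariate, 1059 with the methods' model at its unadjusted threshold (576 after adjustment) and 1089 without the 4 arrays of lowest range.

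Leaving out 1 mouse at a time gave 192 to 1143 calls, 5 to 21 genes apart from each diet, 400 to 803 among the others and 0 to 1 for the effect by batch. The fewest calls came without chimpanzee diet replicate 1 of batch 2, where 64.6% were lower. The same omissions gave beta-actin differences of 0.208 to 0.3, pyruvate carboxylase differences of 0.219 to 0.508 (unadjusted exact permutation p = 0.0369, 0.0226 and 0.0348 without replicates 1 and 2 of batch 1 on the chimpanzee diet and cafeteria replicate 3 of batch 1) and 90th percentile differences of -0.152 to -0.005. Klf9, which was not called (-0.20), was 0.057 in batch 1 alone (adjusted p = 0.93, limma).

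Replicate numbers did not pair the mice across diets: 36 same-numbered pairs within batches correlated at -0.63 to 0.41 with a mean of -0.01, 12 of them above 0.1, and 9 of 24 arrays were closest to their own number. With the replicate block the calls were 383, the genes apart from each diet 5 and those among the others 523.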
